A study of Mus musculus with 4 samples.

Results

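The respiratory chain and ATP synthase subunits encoded in the nucleus were examined in mouse bone marrow-derived macrophages cultured with or without the cytokine IL-4. Members were taken by gene symbol from the platform annotation: complex I symbols beginning with Ndufa, Ndufb, Ndufc, Ndufs or Ndufv and a digit, Sdha to Sdhd for complex II, Uqcr symbols and Cyc1 for complex III, Cox4 to Cox8 for complex IV, and Atp5 symbols for complex V. Only probesets with exactly 1 symbol were used, and where a gene had several, the one with the highest mean over the 4 arrays stood for it. This gave 82 of the 19938 genes on the array: 35 of complex I, 4 of complex II, 9 of complex III, 17 of complex IV and 17 of complex V. Assembly factors were not counted as members. Cox7c and Ndufb4 had no probeset with a single symbol and were not analysed here. By its symbol Ndufa4 was counted in complex I, although the protein is now placed in complex IV. Cox7a2l was likewise counted in complex IV, although it is a factor that joins complexes III and IV.

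The respiratory chain sits in the inner mitochondrial membrane. Complex I takes electrons from NADH and complex II takes them from succinate, both passing them to ubiquinone. Complex III hands them through cytochrome c to complex IV, which reduces oxygen, and the proton gradient built along the way drives ATP synthase, complex V. Macrophages activated by IL-4 are known for relying on oxidative metabolism, while macrophages activated by bacterial products shift to glycolysis. IL-4 signals through its receptor to the transcription factor STAT6.

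Expression was measured on 4 Affymetrix whole-transcript arrays, 1 for each combination of 2 genotypes and 2 culture conditions. Wild-type cells were from BALB/c mice, and Stat6-deficient cells were from the strain labelled 4get/Stat6-/-, which carries a reporter of IL-4 transcription besides lacking Stat6. All cells had been differentiated for 7 days with 10% supernatant of L929 fibroblasts, a source of the macrophage growth factor M-CSF. They were then replated and kept for 24 h without or with IL-4, whose stated amount of 10 has the unit µg/mL in one description and mg/mL in another, and were sorted for the macrophage protein F4/80. The Stat6 deletion and the rest of the strain background, the reporter included, cannot be told apart by these groups.

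Each value is a log2 signal made by RMA, and each difference is one of log2 signals. With 1 array per group no difference had a replicate check, and no test between groups was possible. The words rose and fell are kept for genes with a log2 difference of at least 1, which is 2-fold, whose higher array reached a floor of 2.52, the median of the single-symbol probesets. All 76 members with signal reached the floor on each of the 4 arrays, so that none entered through 1 culture alone. The other 6 lay under it on all arrays: Ndufa4l2, Cox6b2, Cox7a1, Cox7b2, Cox8b and Cox8c. Stat6 signals were lower on both arrays labelled Stat6-/- than on both wild-type arrays, with differences of -2.80 in medium and -2.43 with IL-4. The 8 macrophage markers on the array, among them Csf1r and Adgre1, were above the floor on every array, between 5.36 and 11.9. Their summed level was lowest on the wild-type IL-4 array, at 12.8 on the log2 scale, and between 13.2 and 13.4 on the other 3. On that array 4 of the 8 fell relative to medium: Cd14, Fcgr1, Mertk and Adgre1, the gene of F4/80 itself, at -2.74, -1.76, -1.36 and -1.21. In Stat6-/- the same 4 were at 0.10, 0.09, -0.26 and -0.23. Markers of T cells, B cells, neutrophils and fibroblasts did not exceed 3.23, 3.28, 2.85 and 3.41, values that lie above the floor. Of the 5 fibroblast markers 3 reached the floor on every array, as did 1 of the 3 B cell markers. The summed muscle markers, relevant because several subunits have muscle isoforms, were 4.22 without and 4.78 with IL-4 in wild type, and 4.39 and 4.50 in the same order in Stat6-/-. The part of the macrophage or muscle markers in any result was not tested, and in a bulk sample fewer cells of a type and less RNA per cell cannot be told apart.

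In wild-type macrophages the subunit genes were broadly higher after 24 h with IL-4. Of the 76 members with signal, 20 rose and 0 fell, which is 26.3%, where 2.96% of all genes tested rose and 6.78% fell. The median difference of the members was 0.74, beside -0.10 for all genes with signal. Most differences were moderate in size: the middle 50% of members lay between 0.40 and 1.03, and 48 passed 1.5-fold, all upward, where 9.05% of all genes did so upward and 19.2% downward. A difference above 0 was found for 73 members, and for 41.1% of all genes. The 3 with a difference below 0 were Ndufb3, Ndufa6 and Cox7a2, at -0.31, -0.10 and -0.01. The wild-type IL-4 array was the highest of the 4 for 69 of the 76 members, or 90.8%, where it was the highest for 28.2% of all genes, and it was the lowest for 0 members, where it was for 35.5% of all genes. The Stat6-/- array in medium was the lowest for 40 members, or 52.6%, and for 22.5% of all genes. The median member signal of the wild-type pair was 6.23 without and 6.98 with IL-4, and that of the Stat6-/- pair was 6.002 and 6.26.

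**Figure D1:**
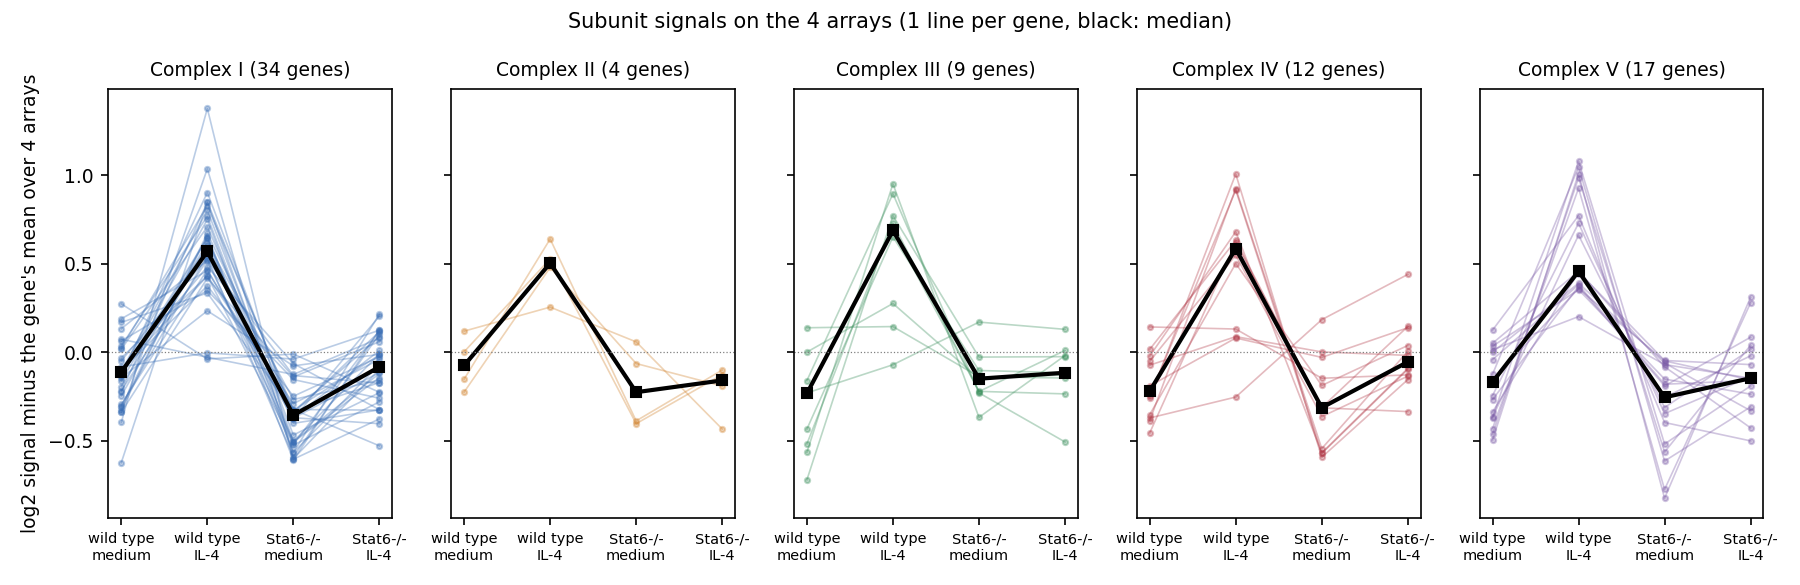
RMA signal of each member with signal on the 4 arrays, relative to the mean of that gene over the arrays, with 1 panel per complex; thin lines are genes and the thick line is the median. The wild-type IL-4 array is the highest for 69 of 76 members, and the lines connect separate cultures, not a time course.

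**Figure D2:**
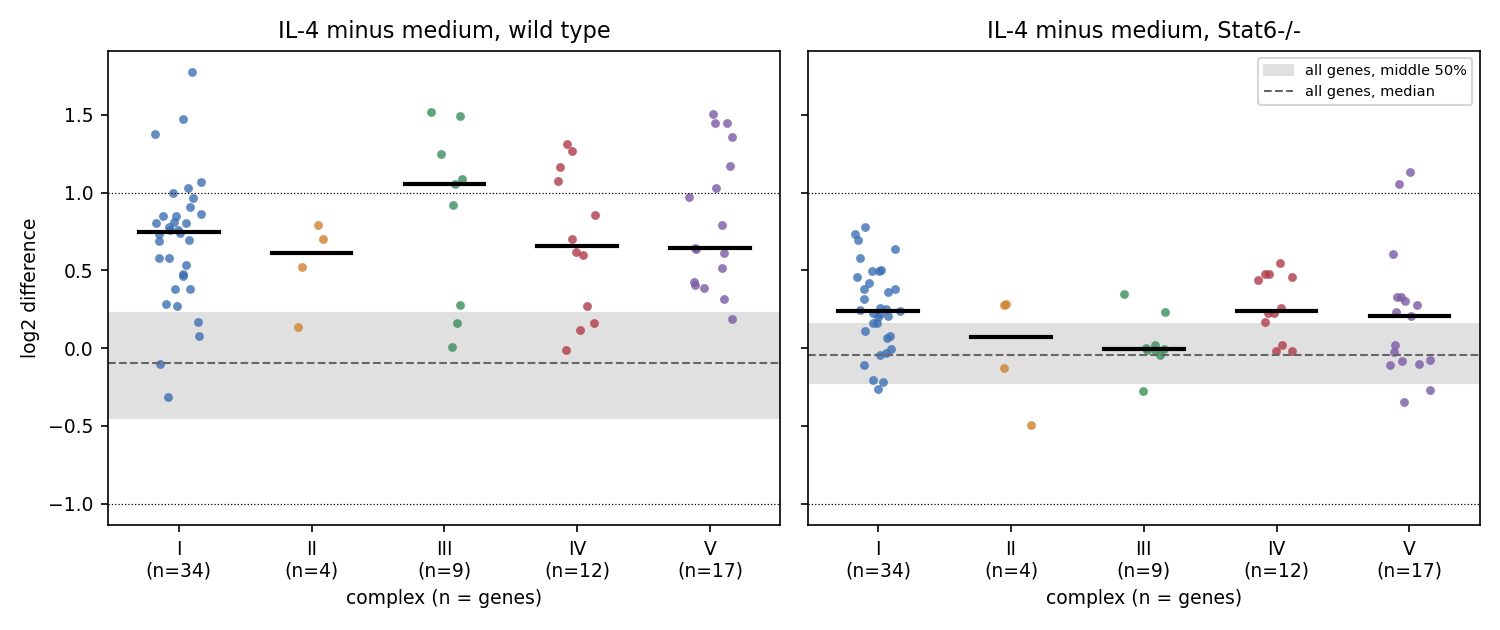
Log2 difference between IL-4 and medium for each member with signal, by complex, in wild type and in Stat6-/-; points are genes, bars are medians, dotted lines mark 2-fold, and the dashed line and grey band are the median and middle 50% of all genes. The wild-type medians run from 0.61 in complex II to 1.05 in complex III, and those of Stat6-/- from -0.01 to 0.24.

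Complex I, the NADH dehydrogenase, had 5 of its 34 members with signal risen in wild type and 0 fallen, with a median of 0.75. Ndufs5, a small accessory subunit, had wild-type signals of 4.71 in medium and 6.48 with IL-4, and Stat6-/- signals of 4.50 and 4.72. Pairs of signals below follow the same order, medium before IL-4. Its 3.42-fold increase was the highest of all members, and the other 3 arrays lay close together. The other 4 that rose were accessory subunits of the membrane arm with symbols in Ndufb, out of 9 such genes with signal. Ndufb10 had 3.35 and 4.82 in wild type and 3.63 and 4.09 in Stat6-/-, a wild-type difference of 1.47. Ndufb8 had 5.12 and 6.498 in wild type and 4.86 and 5.37 in Stat6-/-, a wild-type difference of 1.37. For both genes each IL-4 array was above the medium array of the same genotype, by less in Stat6-/-. Ndufb9 and Ndufb6 rose by 1.07 and 1.03. None of the 13 Ndufa genes with signal reached 2-fold, although their median of 0.74 was near the 0.86 of the Ndufb genes. With 2.96% of all genes tested risen, finding none among 13 lies near the background. Ndufs8, a subunit with iron-sulfur clusters near the ubiquinone site, had a difference of 0.999 and lay just under the rule.

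None of the Ndufv genes or Ndufs1, subunits of the electron entry path of complex I, rose in wild type. As 2.96% of all genes tested rose, finding none among so few genes lies near the background. Ndufv1, which binds NADH and the flavin, had 5.73 and 6.42 in wild type and 5.31 and 5.38 in Stat6-/-. Ndufv2, an iron-sulfur subunit beside it, had 6.22 and 7.02 in wild type and 5.87 and 5.66 in Stat6-/-. Ndufs1, the large iron-sulfur subunit, had 6.39 and 6.55 in wild type and 5.89 and 6.05 in Stat6-/-, so that genotype separated its arrays more than IL-4 did. Ndufv3 varied little, from 5.03 to 5.24 over the 4 arrays. Ndufa6 did too, from 5.17 to 5.37. Ndufs3 and Ndufs7, core subunits of the arm that leads electrons to ubiquinone, had wild-type differences of 0.48 and 0.69. Ndufs4, an accessory subunit whose loss is known to cause mitochondrial disease, had 5.75 and 6.02 in wild type and 5.24 on both Stat6-/- arrays. Of the remaining Ndufa and Ndufb genes, Ndufa5 was at 0.91, Ndufb2 at 0.86, Ndufa2 at 0.85, Ndufb7 at 0.78, Ndufa13 at 0.73, Ndufb5 at 0.53 and Ndufa10 at 0.28. Both Ndufc genes of the membrane arm lay under the rule, and Ndufc1 and Ndufc2 were at 0.58 and 0.76.

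Complex II, succinate dehydrogenase, links the chain to the citric acid cycle and had 0 of 4 members risen, with a wild-type median of 0.61. Of all genes tested 2.96% rose, so that a count of 0 among 4 genes lies near the background. Sdha, the flavoprotein that oxidises succinate, had 7.35 and 7.48 in wild type and 7.29 and 6.80 in Stat6-/-. Sdhb, the iron-sulfur subunit, had 6.24 and 7.03 in wild type and 6.004 and 6.29 in Stat6-/-. The membrane anchor Sdhc had 6.91 and 7.44 in wild type and 6.51 and 6.78 in Stat6-/-, and the anchor Sdhd had 6.24 and 6.94 in wild type and 6.40 and 6.27 in Stat6-/-. The wild-type IL-4 array was the highest for all 4 genes, and Sdha was the one with the least separation from its medium array, at 0.14.

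Complex III, the cytochrome bc1 complex, had the largest median of the 5 complexes in wild type, 1.05, with 5 of 9 members risen. Cyc1, the cytochrome c1 subunit, had 6.60 and 7.65 in wild type and 6.53 and 6.25 in Stat6-/-. The wild-type IL-4 array stood alone, and the difference in Stat6-/- was -0.28. Uqcrfs1, the Rieske iron-sulfur protein, had 4.28 and 5.53 in wild type and 4.58 and 4.81 in Stat6-/-. The small subunits Uqcr10, Uqcr11 and Uqcrq rose by 1.52, 1.49 and 1.09. Uqcr10 had 4.55 and 6.06 in wild type and 4.74 and 5.09 in Stat6-/-. Uqcr11 had 4.16 and 5.65 in wild type, and 4.85 on both Stat6-/- arrays. Its other probeset had 4.35 and 5.72 in wild type and 4.41 and 4.92 in Stat6-/-. The core protein Uqcrc1 had 7.11 and 8.03 in wild type and 7.12 and 7.11 in Stat6-/-. This is the pattern of 1 high array seen for Cyc1, with a difference of 0.92. Not all members took part: Uqcrb, which lies near a ubiquinone site, had 7.09 and 7.10 in wild type, and Uqcrh, the hinge protein, was higher on both Stat6-/- arrays, at 7.56 and 7.52, than in wild type, at 7.16 and 7.32.

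Complex IV, cytochrome c oxidase, had 4 of 12 members with signal risen in wild type and a median of 0.66. Cox6b1, a subunit on the intermembrane side, had 7.23 and 8.54 in wild type and 7.08 and 7.62 in Stat6-/-. Cox7b had 5.69 and 6.95 in wild type and 5.35 and 5.79 in Stat6-/-. Cox6a1 had 6.98 and 8.14 in wild type and 6.66 and 7.13 in Stat6-/-. Cox4i1, the largest nuclear-encoded subunit, had 7.53 and 8.60 in wild type and 7.67 and 8.13 in Stat6-/-. In each of these 4 genes both IL-4 arrays exceeded the medium array of their genotype, and the wild-type IL-4 array was the highest. Cox6c, Cox5a, Cox5b and Cox8a had wild-type differences of 0.85, 0.70, 0.61 and 0.60 and lay under the rule. Cox5b had 7.65 and 8.26 in wild type and 7.32 and 7.30 in Stat6-/-, so that culture separated its wild-type pair only. Ndufa4, counted above with complex I, had 7.31 and 8.16 in wild type and 7.18 and 7.56 in Stat6-/-, a wild-type difference of 0.85.

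Several complex IV subunits have isoforms that differ by tissue. The alternative isoforms Cox6b2, Cox7a1, Cox7b2, Cox8b and Cox8c stayed under the floor on all 4 arrays. Cox4i2, an isoform known from lung, was just above the floor, between 2.62 and 2.78. Cox6a2, the heart and muscle isoform, was between 3.31 and 3.64, with its highest value in Stat6-/- with IL-4. Cox7a2, the widespread form of its pair, had 5.91 and 5.90 in wild type and 5.62 and 5.64 in Stat6-/-. Its relative Cox7a2l, a factor that joins complexes III and IV, was the member most clearly higher in Stat6-/-: signals were 6.77 and 6.89 in wild type and 7.33 and 7.58 in Stat6-/-. A further probeset of Cox7a2l gave Stat6-/- differences of 0.25 in medium and 0.70 with IL-4.

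ATP synthase, complex V, had 6 of 17 members risen in wild type, with a median of 0.65, and the wild-type IL-4 array was the highest of the 4 for all 17. The membrane part held 5 of the 6. Atp5g3, a gene for the c ring that turns with the proton flow, had 7.44 and 8.89 in wild type and 7.30 and 7.62 in Stat6-/-. Atp5g1, which encodes the same mature ring protein, had 4.96 and 6.13 in wild type and 4.47 and 4.78 in Stat6-/-. The third c ring gene, Atp5g2, lay under the rule at 0.64. Small membrane subunits that help to hold ATP synthase as dimers rose as well. Atp5k had 4.99 and 6.43 in wild type and 4.88 and 5.49 in Stat6-/-. Atp5l had 6.07 and 7.42 in wild type and 5.72 and 6.78 in Stat6-/-. Atp5j2 rose by 1.03.

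Within the catalytic F1 head of ATP synthase only Atp5e, the epsilon subunit, rose among the 5 genes. It had 5.74 and 7.24 in wild type and 5.41 and 6.55 in Stat6-/-, so that both genotypes had higher signals with IL-4. The alpha subunit Atp5a1 had 9.27 and 9.68 in wild type and 9.14 and 8.80 in Stat6-/-. The beta subunit Atp5b, which carries the catalytic sites, had 8.97 and 9.61 in wild type and 8.45 and 8.34 in Stat6-/-. For both, the IL-4 array was higher than medium in wild type and lower in Stat6-/-. The wild-type medians were 0.65 in the F1 head, 1.17 in the c ring, 0.41 in the stalk and 1.03 in the small membrane subunits, over 5, 3, 4 and 5 genes. The remaining F1 subunits Atp5c1 and Atp5d were at 0.52 and 0.79 in wild type and at -0.11 and -0.02 in Stat6-/-. In the stalk that keeps the head from turning, Atp5o was at 0.97, Atp5h at 0.42, Atp5pb at 0.39 and Atp5j at 0.19. Atp5o had 6.24 and 7.21 in wild type and 6.14 and 6.34 in Stat6-/-, with the wild-type IL-4 array well above the other 3. The small proteins Atp5mpl and Atp5md were at 0.61 and 0.32.

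Upstream sequences were compared because nuclear-encoded subunits are known to share binding motifs for a few transcription factors, among them NRF1 (nuclear respiratory factor). RefSeq promoters of build GRCm38.p6, from 250 bases before to 50 after the start, were matched by gene identifier for 66 of the 82 members, 71 promoters in all. Searched on both strands, the NRF1 motif, GCGCA and GCGC with any 1 base between them, was present in 17 of these, or 23.9%. It was present in 4.60% of all promoters in the table and in 9.99% of the promoters of the other genes with signal. The following lines give the 200 bases before the start on the minus strand, with each NRF1 match in capitals. Ndufs5, Cox6a1 and Atp5k rose in wild type and hold matches, Sdha holds the most matches of these with a difference of only 0.14, and Uqcr10 rose with no match.
Ndufs5: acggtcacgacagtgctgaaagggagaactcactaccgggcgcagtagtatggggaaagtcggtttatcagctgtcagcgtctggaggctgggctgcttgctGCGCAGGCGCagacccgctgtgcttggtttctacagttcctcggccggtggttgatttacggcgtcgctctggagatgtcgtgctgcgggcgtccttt
Cox6a1: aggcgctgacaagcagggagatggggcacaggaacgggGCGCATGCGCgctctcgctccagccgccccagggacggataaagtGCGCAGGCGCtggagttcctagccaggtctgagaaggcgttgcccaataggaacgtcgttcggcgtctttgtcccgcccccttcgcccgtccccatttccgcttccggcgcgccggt
Atp5k: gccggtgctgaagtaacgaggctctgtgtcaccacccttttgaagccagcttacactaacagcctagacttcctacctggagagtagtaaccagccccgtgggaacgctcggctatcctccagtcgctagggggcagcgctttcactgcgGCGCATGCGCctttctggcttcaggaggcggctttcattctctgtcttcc
Sdha: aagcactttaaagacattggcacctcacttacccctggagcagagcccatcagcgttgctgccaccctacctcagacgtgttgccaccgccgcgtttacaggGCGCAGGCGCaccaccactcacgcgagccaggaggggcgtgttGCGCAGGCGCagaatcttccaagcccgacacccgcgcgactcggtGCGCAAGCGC
Uqcr10: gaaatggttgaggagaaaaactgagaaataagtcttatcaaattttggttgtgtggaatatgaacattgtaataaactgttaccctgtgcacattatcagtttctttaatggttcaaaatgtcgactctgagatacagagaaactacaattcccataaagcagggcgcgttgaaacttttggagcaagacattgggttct
The windows lie at chr4:123718187-123718386 for Ndufs5, chr5:115348959-115349158 for Cox6a1, chr5:108434400-108434599 for Atp5k, chr13:74350241-74350440 for Sdha and chr11:4704345-4704544 for Uqcr10. The match of Ndufs5 begins 98 bases before the start and that of Atp5k 50 bases before it. Cox6a1 has matches at 162 and 117 bases, and Sdha at 98, 55 and 10 bases.

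The NRF1 motif was in 4 of 16 promoters of risen members, or 25%, and in 13 of 55 promoters of the other members, or 23.6%. By complex it was in 7 of 33 promoters of complex I, 2 of 3 of complex II, 1 of 5 of complex III, 1 of 12 of complex IV and 6 of 18 of complex V. The YY1 motif ANATGGCGG was in 9.86% of member promoters, 1.86% of all promoters and 3.91% of those of the other genes with signal. The ETS motif CCGGAAGT, which GABP binds, was in 7.04%, 3.89% and 8.14%. The STAT6 motif, TTC and GAA with any 4 bases between them, was in 5.63% of member promoters, 6.95% of all promoters and 5.32% of those of the other genes with signal. Divided by risen and other members, the YY1 motif was in 0 of 16 and 7 of 55 promoters, the ETS motif in 1 of 16 and 4 of 55, and the STAT6 motif in 2 of 16 and 2 of 55, counts too small to read a difference from. A match is a description of the letters in the window and does not show binding.

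In Stat6-deficient macrophages the same culture with IL-4 gave smaller differences. Atp5e and Atp5l rose, by 1.13 and 1.05, and 0 members fell, where 0.24% of all genes tested rose and 0.115% fell. The median difference of the members was 0.23, beside -0.04 for all genes, and 53 members were above 0, where 43.3% of all genes were. Past 1.5-fold upward were 7 members, where 2.94% of all genes were, and 0 were downward, where 2.79% were. The 7 were Ndufa1, Ndufa11, Ndufa12, Ndufs6, Atp5e, Atp5k and Atp5l. Several of these had a similar difference in wild type. Ndufa11, in the membrane arm of complex I, had 5.11 and 6.08 in wild type and 4.86 and 5.64 in Stat6-/-. Its other probeset gave a difference of 1.16 in Stat6-/-, past the rule. Ndufs6, a zinc-binding accessory subunit, had 5.19 and 5.99 in wild type and 4.74 and 5.48 in Stat6-/-. Ndufa1 had 5.30 and 5.88 in wild type and 4.76 and 5.45 in Stat6-/-. These genes thus differed by culture on both pairs of arrays, with the Stat6-/- pair lower throughout.

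By complex, the Stat6-/- medians of the IL-4 difference were 0.24 in complex I, 0.07 in complex II, -0.01 in complex III, 0.24 in complex IV and 0.21 in complex V. The lowest member was Sdha at -0.49. Complex III, which had the largest median in wild type, had the lowest in Stat6-/-. Its 9 members lay between -0.28 for Cyc1 and 0.35 for Uqcr10. The other probeset of Uqcr11, not used for these values, gave 0.51. The IL-4 differences of both genotypes, which share no array, had across the 76 members a Pearson r of 0.494 and a Spearman rho of 0.497. Across all genes with signal these were 0.272 and 0.292. Genes of one array are not independent replicates, so these describe 2 pairs of arrays only.

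**Figure D3:**
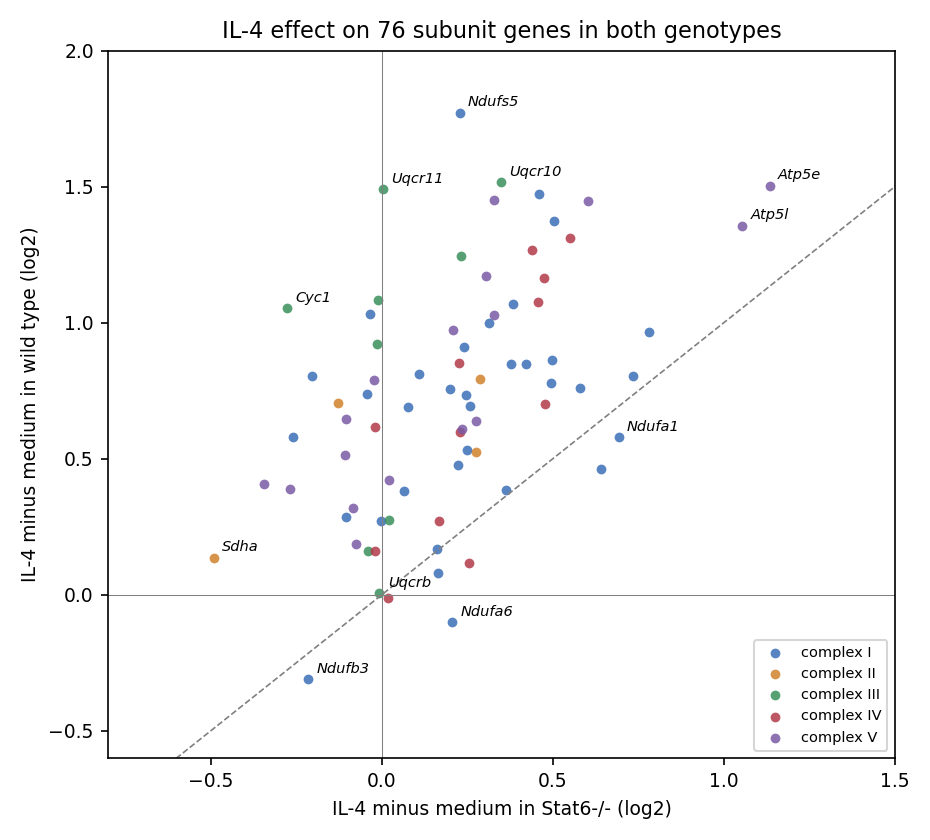
Log2 difference between IL-4 and medium in wild type (vertical axis) against that in Stat6-/- (horizontal axis) for each member with signal, coloured by complex; the dashed line marks equal differences. The wild-type difference is the larger for 69 of 76 members, and Atp5e and Atp5l are the highest in Stat6-/-.

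**Figure D4:**
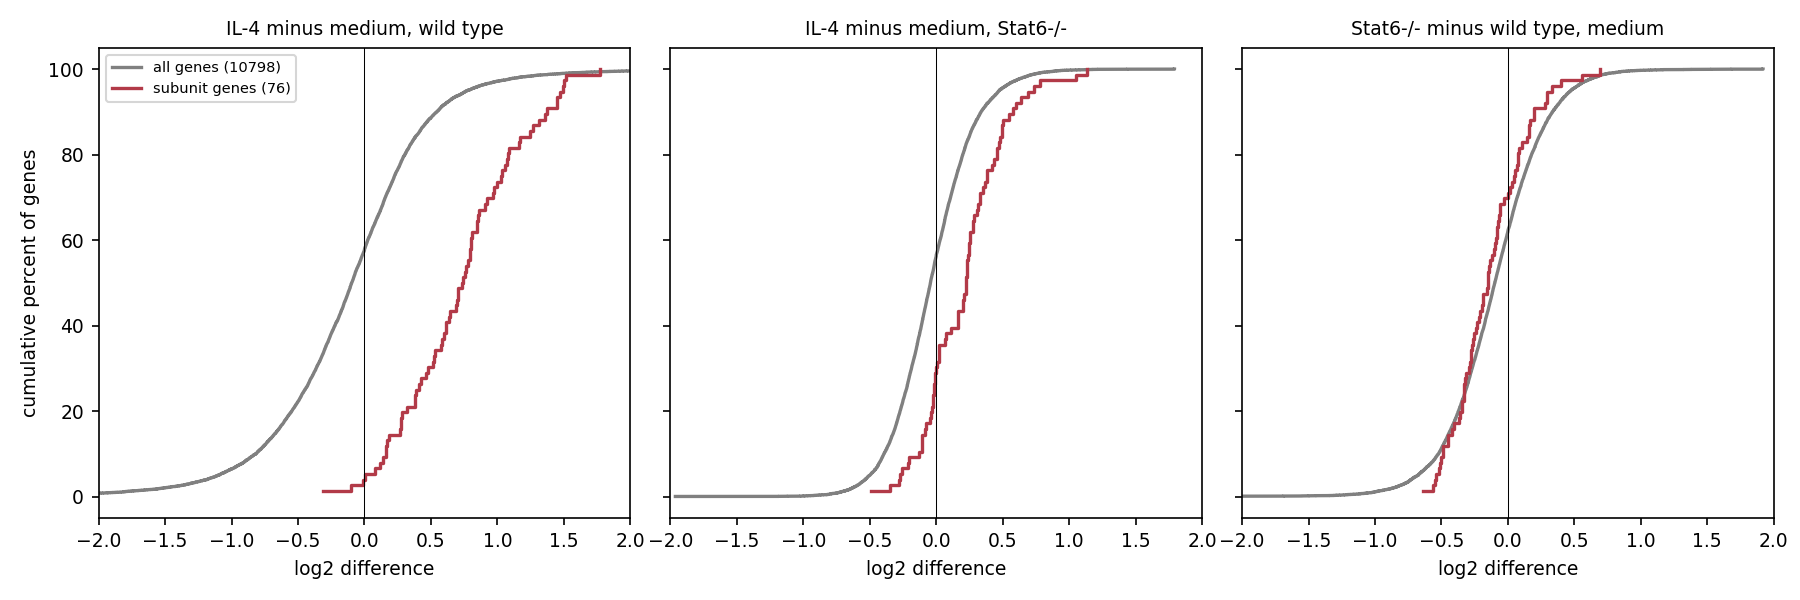
Cumulative share of genes by log2 difference, for members and for all genes with signal, for IL-4 in each genotype and for Stat6-/- minus wild type in medium; the horizontal axis stops at -2 and 2. The member curve lies far to the right for IL-4 in wild type, with a median of 0.74 against -0.10, less so in Stat6-/-, with 0.23 against -0.04, and near all genes in medium, with -0.15 against -0.10.

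The wild-type IL-4 effect less that of Stat6-/- had a median of 0.50 in the members and -0.07 in all genes. It was above 0 for 69 members, where it was for 44% of all genes. It reached 1 for 10 members and -1 for 0, where 3.2% and 5.77% of all genes did so. Past 1.5-fold were 36 members, all with the larger effect in wild type, where 9.83% of all genes lay past it that way and 16.4% the other way. Complex III held 5 of the 10: Cyc1, Uqcr10, Uqcr11, Uqcrfs1 and Uqcrq, at 1.33, 1.17, 1.49, 1.01 and 1.10. The other probeset of Uqcr11 gave 0.86, under the rule. For Uqcr10, Uqcr11, Uqcrfs1 and Uqcrq the wild-type medium array was the lowest of the 4. Stat6-/- minus wild type in medium was 0.20, 0.69, 0.30 and 0.33 for these genes, in that order. Complex I held 4, with Ndufs5 at 1.55 and Ndufb6, Ndufb10 and Ndufv2 at 1.07, 1.01 and 1.01. Complex V held Atp5g3 at 1.12, and complexes II and IV held none, although the other probeset of Cox7b in complex IV gave 1.10. The median over complex III was 1.01, compared with 0.41 in complex I, 0.57 in complex II, 0.49 in complex IV and 0.66 in complex V.

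Without IL-4 no member separated the genotypes by 2-fold. In medium 0 members rose or fell in Stat6-/- relative to wild type, where 0.301% of all genes rose and 1.15% fell. A count of 0 thus lies near the background. The median was -0.15, beside -0.10 for all genes, and 54 members were below 0, where 63.3% of all genes were. Ndufa9, a complex I subunit near the ubiquinone site, was the lowest at -0.64, and Uqcr11 was the highest at 0.69. These 2 were past 1.5-fold, where 7.89% of all genes were lower and 2.92% higher by that much. The other probeset of Uqcr11 gave only 0.06. The median of complex I was -0.25 and that of complex III was 0.20.

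With IL-4 the Stat6-/- array lay below the wild-type array for 71 of the 76 members, where it did for 50% of all genes. There 13 members fell and 0 rose, where 4.83% of all genes fell and 4.01% rose, and the median was -0.68 beside 0.00. Past 1.5-fold 47 members were lower and 1 was higher, where 12.4% and 10.6% of all genes were. This comparison shares 1 array with each comparison of IL-4 with medium, so it is not separate evidence. Complex I held 7 of the 13. Ndufs5, Ndufv2 and Ndufb6 fell by 1.75, 1.36 and 1.31, Ndufb8 by 1.13, Ndufa13 by 1.05, and Ndufa5 and Ndufv1 by 1.03 each. Cyc1 of complex III fell by 1.40. Of complex IV, Cox7b and Cox6a1 fell by 1.16 and 1.01, and of complex V, Atp5g1 fell by 1.36 and Atp5b and Atp5g3 by 1.27 each. Of the 5 members above 0, Cox7a2l was the highest at 0.69. The others were Uqcrh, Ndufv3, Ndufa6 and Cox6a2.

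Atp5b is one of 6 members on the chromosome that carries Stat6, with 17 protein-coding genes between them. In Stat6-/- relative to wild type Atp5b differed by -0.52 without IL-4 and by -1.27 with it, and the part of its position near the deleted gene in this was not tested. Ndufa4l2, with 3 protein-coding genes between, was under the floor. The other 4, Ndufa12, Uqcr11, Ndufs7 and Atp5d, had at least 171 protein-coding genes between.

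Genes that build or serve the chain without being subunits were set beside the members. None of the 40 assembly factors with signal, for complexes I to V, rose or fell in wild type with IL-4, where 2.96% of all genes rose and 6.78% fell, so that a count of 0 lies near the background. The medians were -0.03 over 12 complex I factors, -0.03 over 8 factors of complexes II and III, 0.06 over 17 of complex IV and -0.23 over 3 of complex V. Among them Ndufaf4 was at 0.80, Uqcc2 at 0.86 and Cox17, the copper chaperone of complex IV, at 0.77, while Ndufaf1 was at -0.73 and Surf1 at -0.45. Cox17 was also at 0.90 in Stat6-/-. Between the genotypes with IL-4, Ndufaf4 and Cox10, which makes heme for complex IV, fell by 1.02 and 1.04 in Stat6-/-, and 0 of the 40 rose, where 4.83% of all genes fell and 4.01% rose. The IL-4 effect of Ndufaf1 was lower in wild type than in Stat6-/- by more than 2-fold, at -1.17. Over 11 genes of ubiquinone synthesis the median was 0.07, and 1 rose and 0 fell, a count that is too small to set apart from the 2.96% and 6.78% of all genes. Coq7, a hydroxylase of that pathway, had 3.801 and 4.89 in wild type and 3.13 and 3.67 in Stat6-/-. With IL-4 it fell in Stat6-/- relative to wild type by 1.21, as did Coq10b by 1.12. These were 2 of the 11 genes and 0 rose, counts too small to set apart from the 4.83% and 4.01% of all genes. The difference of the IL-4 effects went both ways, with Coq10b at 1.11 and Coq2 at -1.03.

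A list of further subunits, carriers and related genes outside the symbol rule had a median between those of the members and the assembly factors. Its 6 genes with signal had a median of 0.35. Of these 0 rose and 0 fell, where 2.96% of all genes rose and 6.78% fell, so that the count lies near the background. The list included Etfa, Etfb and Etfdh, at 0.29, 0.40 and -0.22. Cycs, which encodes cytochrome c, had 5.67 and 6.53 in wild type and 4.92 and 5.25 in Stat6-/-, and was lower in Stat6-/- by 1.27 with IL-4, a direction that turned with its lowest probeset. Ndufab1, the acyl carrier subunit of complex I, was at 0.84 and Atpif1, the inhibitor of ATP synthase, at 0.07. Of the carriers that exchange ATP and ADP, Slc25a5 was at 0.91 and Slc25a4 at 0.26. With IL-4, Slc25a5 fell by 1.04 in Stat6-/- relative to wild type. The 13 subunits encoded by mitochondrial DNA were not named on the array and were not analysed here.

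Regulators of mitochondrial gene expression had a median of -0.36 over 14 genes, with 1 risen and 0 fallen, beside the same 2.96% and 6.78% of all genes. Ppargc1b, a coactivator of oxidative metabolism, had 3.48 and 4.52 in wild type and 3.28 and 3.60 in Stat6-/-. Its relative Ppargc1a was under the floor. None of the DNA-binding factors passed 2-fold in wild type with IL-4: Nrf1 was at -0.38, Gabpa at -0.55, Yy1 at -0.35 and Esrra at 0.28. Tfam, which maintains mitochondrial DNA, was at -0.37, and Gabpb2 was the lowest at -0.85.

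**Figure D5:**
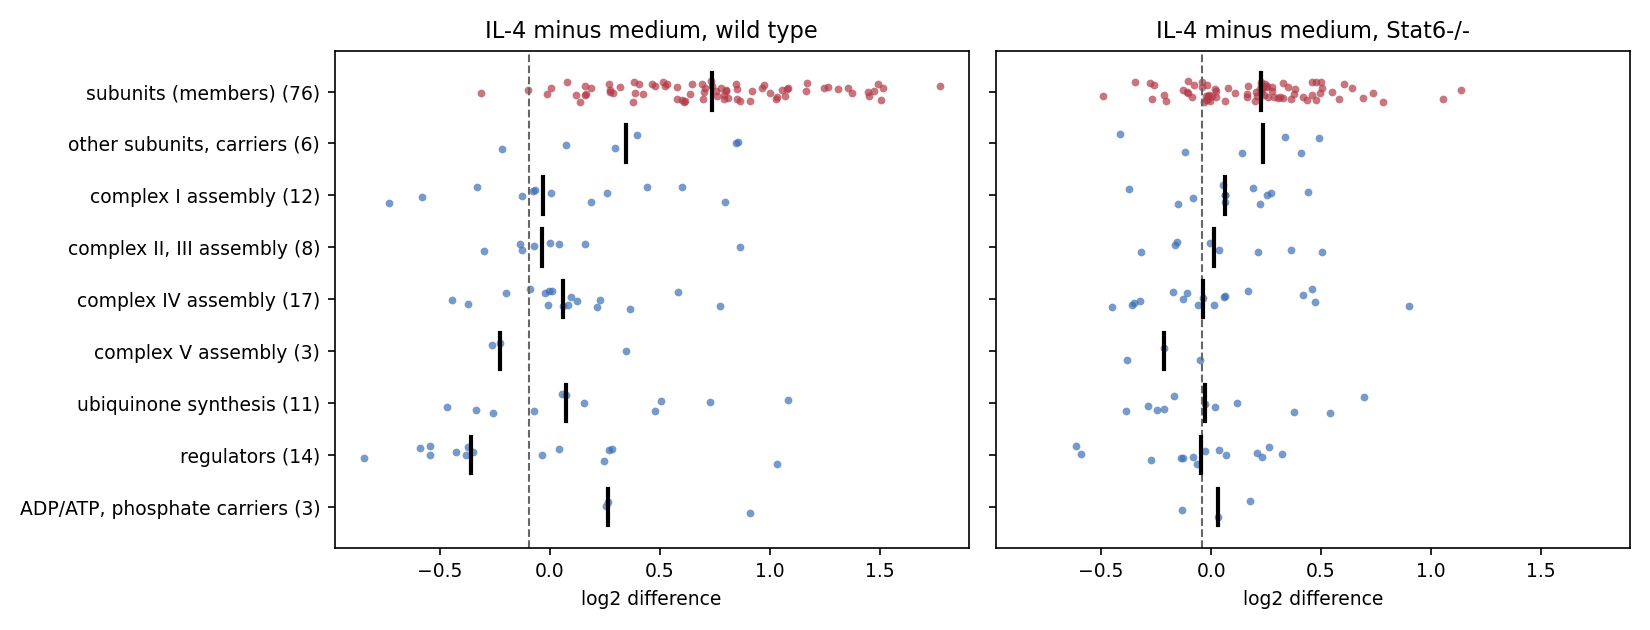
Log2 difference between IL-4 and medium for the subunits and for the lists of assembly factors, ubiquinone synthesis, carriers and regulators, in wild type and in Stat6-/-; points are genes with signal, bars are medians and the dashed line is the median of all genes. The subunits have a wild-type median of 0.74, while the medians of the assembly factor lists lie between -0.23 and 0.06.

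Gene length and signal level moved with the IL-4 difference. Members are short genes, with a median span of 7228 bases compared with 21292.5 for the other genes with signal, and their median signal was 6.31 compared with 4.42. With the genes divided by span into 5 equal classes, in the shortest class the median wild-type difference was 0.10 for the other genes and 0.97 for the 32 members there. In the next class it was -0.01 and 0.73, and in the one after it was -0.12 and 0.43, over 31 and 10 members. In the highest of 5 equal classes by signal it was -0.21 for the other genes and 0.64 for the 46 members. The members thus lay above other genes of like span and like signal, and shorter genes of both kinds lay higher. With the trends of signal and span both removed, an alternative added after seeing the data, the wild-type median of the members was 0.78 and lay 0.78 above that of all genes, compared with 0.83 above it without the removal.

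Probesets of the same gene gave a gauge of measurement error within an array, though not of biological spread. For the 16 members with several probesets, the median range of the wild-type IL-4 difference among probesets was 0.10 and the largest was 0.44, for Cox7a2l. The sign was the same in all probesets for 14 of the 16 genes. The other comparisons had wider median ranges: 0.16 for IL-4 in Stat6-/- and 0.21 for the difference of the IL-4 effects. Between genotypes the median range was 0.22 in medium and 0.13 with IL-4. The largest ranges were 0.57 for IL-4 in Stat6-/-, 0.75 for the difference of effects, 0.64 in medium and 0.41 with IL-4. In that order the sign was the same for 12, 14, 13 and 16 genes. Atp5pb gave each of these largest ranges except that in medium, which Uqcr11 gave. For IL-4 in Stat6-/- the Atp5pb probeset used here gave -0.27 and its other probeset 0.30. For the difference of effects these gave 0.66 and -0.09. The 6 probesets of Atp5l gave 1.28 to 1.65 in wild type and 0.77 to 1.25 in Stat6-/-. For Cox7b they gave 1.27 and 1.35 in wild type, and for Atp5g1 1.04 and 1.17. Ndufa11, which lay under the rule in both genotypes, at 0.97 in wild type and 0.78 in Stat6-/-, passed it in both with its other probeset. That probeset gave 1.34 in wild type and 1.16 in Stat6-/-.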

How the data were processed

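The authors deposited 1 log2 signal per probeset for 4 arrays, made with RMA in Affymetrix Expression Console per the submitters' processing notes; its versions and the annotation build were not given in the sources used here. RMA draws low signals together, so fold changes of weak genes are understated. Of 35557 probesets, 21789 had 1 symbol in the platform annotation and 1621 had several; 6 of the latter carried a symbol of the rule and were not used. All 82 members matched RefSeq gene identifiers. IL-4 was compared with medium within each genotype, the genotypes were compared within each culture, and the IL-4 effects were subtracted, which made 5 comparisons. No test was run with 1 array per group. Members, lists and the rule of size were chosen with earlier results of these data known. Named genes were those past 1.5-fold or 2-fold, the extremes of each complex, the catalytic core, tissue isoforms, members on the chromosome of Stat6 and the extremes of each list. Alternatives were renewed quantile normalization, median shifts, removal of intensity trends by lowess (fraction 0.3), other floors, other probesets, 1.5-fold and, added after seeing the data, removal of intensity and span trends together. Calculations were tested on simulated data and used Python 3.11.15, pandas 2.3.3 and statsmodels 0.14.6.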

Additional observations from a re-analysis of the deposited data

Results flagged for a closer look

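Cyc1, Ndufb6 and Uqcrq had an IL-4 difference past 2-fold in wild type and one of opposite sign in Stat6-/-. Cyc1 was at 1.05 in wild type and -0.28 in Stat6-/-. Ndufb6 was at 1.03 and -0.034, and Uqcrq at 1.09 and -0.013. Each value rests on 1 pair of arrays, and the difference between the genotypes was not tested. In size the Stat6-/- values of Cyc1, Ndufb6 and Uqcrq all lie within 0.57, the largest range among probesets of one gene in that comparison. The median range there was 0.16, and only the Cyc1 value is larger in size.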

How the results depend on the processing

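The direction of each median over the members was kept under every alternative run. In wild type the median IL-4 difference was 0.91 with the intensity trend removed and 0.85 with quantile normalization repeated. In medium the median of Stat6-/- minus wild type was -0.0028, -0.027 and -0.030 with the intensity trend removed, with quantile normalization repeated and with intensity and span trends removed. With IL-4 it was -0.55 with both trends removed. The median difference of the IL-4 effects was 0.60 with the intensity trend removed and 0.60 with quantile normalization repeated. It was 0.53 with Ndufa4 and Cox7a2l left out, compared with 0.50 with them. At 1.5-fold the counts were 48 members for IL-4 in wild type, 7 for IL-4 in Stat6-/-, 2 between genotypes in medium, 48 with IL-4 and 36 for the difference of effects. With the other alternatives the counts at 2-fold were within 1.5 times those given. Repeated quantile normalization shifted the median of all genes by 0.12 for IL-4 in wild type. The excess of the members over all genes was 0.83 with and without it and 0.78 with both trends removed. It was 0.68 with no floor, 0.90 with the intensity trend removed and 0.95 with the floor at the 75th percentile. With the lowest probeset of each gene, Coq10a turned to -1.06 for IL-4 in wild type and Cycs to 0.61 for Stat6-/- with IL-4. No paired analysis was possible because each group had 1 array. The number of arrays limits every value, and signals near the floor, such as those of Cox4i2, have little precision.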
